A study of Mus musculus with 2 samples.

Results

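The genes described here are the 9 mouse let-7 genes that do not lie in a cluster with miR-99 or miR-100 and miR-125, namely Mirlet7a-1, Mirlet7f-1, Mirlet7d, Mirlet7b, Mirlet7c-2, Mirlet7g, Mirlet7i, Mirlet7f-2 and Mir98. They were chosen by gene name and position from the 2202 miRNA genes in the deposited count files. All 9 were found and all 9 passed the minimum of 10 counts in each library. The mice were B6CASTF1/J males, the first-generation cross of C57BL/6J with CAST/EiJ, and the left cerebral cortex was taken at 25 days of age. Total RNA of 2 biological replicates gave 1 library each of small RNA below 30 bases. The labels number the biological replicates separately but enter 1 donor for both, so whether they are 2 animals is not settled. No animal was treated and every animal had the same genotype, so the libraries are replicates of 1 group and no condition is compared. Differences between replicate 2 and replicate 1 are differences between these libraries, in which animal, dissection and library preparation cannot be told apart.

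let-7 miRNAs were first found in Caenorhabditis elegans, where they time the passage from larval to adult fates, and the family is conserved across animals. In vertebrates the genes are transcribed as long primary RNAs, cut into hairpins by Drosha and into mature miRNAs by Dicer. Mature let-7 accumulates as cells differentiate, also in the brain, and represses targets such as Hmga2, Lin28 and Ras genes through its seed, the bases that pair with the target. LIN28 proteins bind let-7 precursors and block their maturation in undifferentiated cells.

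The mature 5p sequences are shown because the family is defined by them. A read of exactly the mature 5p sequence can also be given to 1 gene only where these sequences differ. They come from RefSeq on GRCm38.p6, where all 9 genes were matched, and are written 5′ to 3′ with the seed, bases 2 to 8, in capitals.
let-7a-5p (Mirlet7a-1): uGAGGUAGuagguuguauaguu
let-7f-5p (Mirlet7f-1 and Mirlet7f-2): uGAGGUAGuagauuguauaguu
let-7d-5p (Mirlet7d): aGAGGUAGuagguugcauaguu
let-7b-5p (Mirlet7b): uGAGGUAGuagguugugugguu
let-7c-5p (Mirlet7c-2): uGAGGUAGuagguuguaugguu
let-7g-5p (Mirlet7g): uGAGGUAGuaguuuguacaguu
let-7i-5p (Mirlet7i): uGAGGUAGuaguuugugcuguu
miR-98-5p (Mir98): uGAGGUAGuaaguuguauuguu

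The 9 genes thus encode 8 distinct 5p sequences of 22 bases with 1 seed, GAGGUAG. At 15 of the 22 positions all 8 sequences carry the same base, and any pair of them differs at 1 to 6 positions. Counted from 1 at the 5′ end and with let-7a-5p as the reference, let-7f-5p differs by G12A and let-7c-5p by A19G. let-7d-5p differs by U1A and U16C, and let-7b-5p by A17G and A19G. let-7g-5p has G12U and U18C, and let-7i-5p has these positions changed as G12U and U18C together with A17G and A19U. miR-98-5p carries G11A and A19U. No difference fell in the seed.

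The 3p arms are shown for the genes whose 5p sequence is carried by another miRNA gene, since a read of exactly that sequence cannot tell the copies apart. Longer reads that reach bases where the hairpins differ could do so, which the counts per gene do not show. Capitals again mark bases 2 to 8.
let-7a-1-3p (Mirlet7a-1): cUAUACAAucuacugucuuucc
let-7c-2-3p (Mirlet7c-2): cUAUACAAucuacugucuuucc
let-7f-1-3p (Mirlet7f-1): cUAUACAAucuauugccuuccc
let-7f-2-3p (Mirlet7f-2): cUAUACAGucuacugucuuuc

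let-7a-1-3p and let-7c-2-3p are identical, so Mirlet7a-1 and Mirlet7c-2 share both of their mature arms with another let-7 gene. Mirlet7a-1 shares its 5p arm with Mirlet7a-2, and Mirlet7c-2 shares its own with Mirlet7c-1, both of which are cluster genes. Mirlet7f-1 and Mirlet7f-2 share the 5p arm with each other and differ in the 3p arm. The files give 1 count per gene, not split by arm.

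Together the 9 genes held 574203 of the own-strand counts in replicate 1 and 869569 in replicate 2. Their share of all own-strand counts was 24.0% in replicate 1 (23.99% to 24.10%) and 19.6% in replicate 2 (19.52% to 19.59%), or 21.8% ± 3.17 (SD, n = 2). Intervals of shares are exact Clopper-Pearson intervals at 95%. They cover counting error within a library alone, not spread between animals or libraries. They also treat sequenced reads as independent molecules, which need not hold. Levels are given as CPM, the own-strand counts of a gene scaled to a library total of 1000000, computed from the deposited counts. Levels were not divided by length, because a read of a mature miRNA spans it whole and the 9 hairpins are of similar length, 83 to 108 bases.

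Mirlet7g, Mirlet7b and Mirlet7i were the 3 highest members and stood among the 5 most abundant of all 2202 genes in both libraries. Mirlet7g (ENSMUSG00000065440.1, chr9:106178840-106178927 on the plus strand of mm10) lies in an intron of Wdr82, which encodes a subunit of histone methyltransferase complexes. It had 179424 and 304484 counts in replicates 1 and 2, a level of 75124 and 68464 CPM, and ranked 2 of all genes in both libraries. Its mean was 71794 ± 4709 CPM (SD, n = 2), the highest of the let-7 genes.

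Mirlet7b (ENSMUSG00000065564.1, chr15:85707319-85707403, plus strand) lies in an exon of the non-coding gene Lncppara. It had 151940 and 254879 counts, or 63616 and 57309.8 CPM, and ranked 3 and 4 of all genes. Mirlet7i (ENSMUSG00000065406.3, chr10:122985640-122985724, minus strand) lies in an exon of D630033A02Rik, annotated as a transcribed processed pseudogene and stands alone, with no other let-7 gene on that chromosome. It had 135067 and 210868 counts, or 56552 and 47414 CPM, and ranked 5 in both libraries. The ranges of these 3 genes did not overlap, though the lower library of Mirlet7b, at 57309.8 CPM, was barely above the higher library of Mirlet7i.

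Mirlet7d (ENSMUSG00000065453.1, chr13:48536012-48536114, minus strand) was next in level and the member whose libraries differed most. It had 85300 counts in replicate 1 and, in the deeper library of replicate 2, only 65429. These are 35715 and 14712 CPM, with a mean of 25213 ± 14851 (SD, n = 2), and rank 8 against rank 15. Mirlet7d lies in an exon of the lincRNA 6720427I07Rik together with Mirlet7a-1 and Mirlet7f-1.

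The other 5 members had mean levels of 3957 CPM or less. Mir98 (ENSMUSG00000065536.2, chrX:151913214-151913321, plus strand) and Mirlet7f-2 (ENSMUSG00000065602.1, chrX:151912346-151912428, plus strand) lie in an intron of Huwe1, which encodes a ubiquitin ligase. Mir98 had 10222 and 16163 counts, or 4279.9 and 3634 CPM. Mirlet7f-2 had 6572 and 9676 counts, or 2752 and 2176 CPM. Mir98 was the higher of the pair in both libraries.

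Mirlet7c-2 (ENSMUSG00000065608.1, chr15:85706603-85706697, plus strand) lies in an exon of Lncppara, as Mirlet7b does, and had 4165 and 6131 counts, or 1744 and 1379 CPM. Mirlet7a-1 (ENSMUSG00000065421.3, chr13:48538179-48538272, minus strand) had 993 and 1359 counts, or 416 and 306 CPM. Mirlet7f-1 (ENSMUSG00000105621.1, chr13:48537829-48537917, minus strand) was the lowest with 520 and 580 counts, or 218 and 130.4 CPM. Mirlet7f-1 is overlapped on the other strand by an annotated miRNA gene, Gm24111, which had 0 own-strand counts in both libraries, so the level of Mirlet7f-1 depends on the counts being kept by strand.

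The order of the 9 levels was the same in both libraries, and none of the 8 pairs of neighbours in that order overlapped in the range of their libraries. The mean of Mirlet7g was 412 times that of Mirlet7f-1, with a ratio of 345 in replicate 1 and 525 in replicate 2. Mirlet7f-1 shares its 5p sequence with Mirlet7f-2, so this span can include reads that were not counted because they match both genes. The closest neighbours were Mirlet7b and Mirlet7i, whose means differed by a factor of 1.16, and the widest gap, a factor of 6.37, lay between Mirlet7d and Mir98. With 2 libraries no test of these differences between genes was made.

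**Figure D1:**
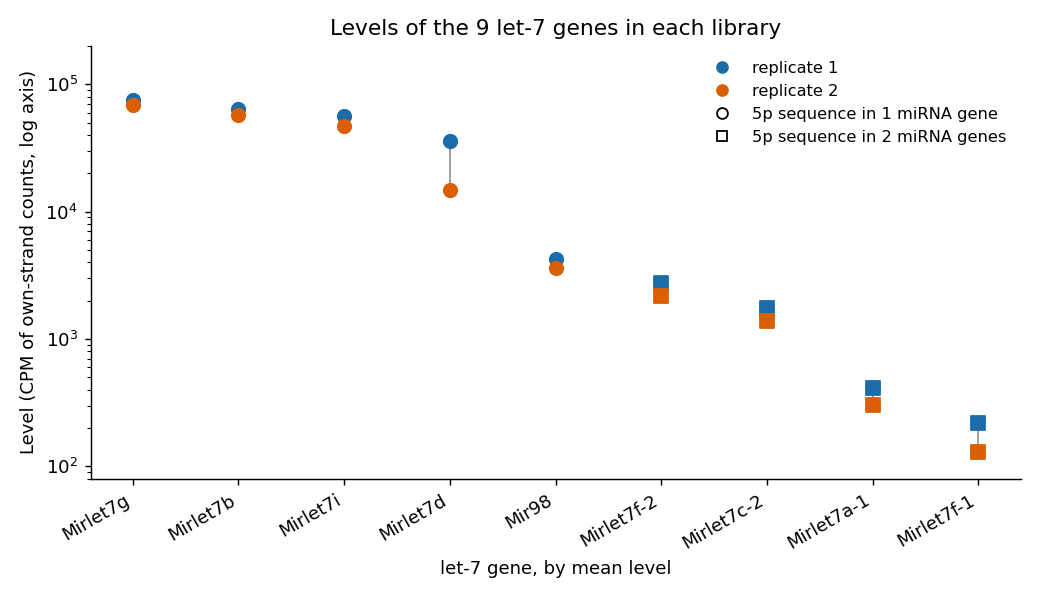
Level of each of the 9 let-7 genes in CPM on a log axis, with 1 point for each library. The genes run from Mirlet7g, at 75124 and 68464 CPM, to Mirlet7f-1, at 218 and 130.4 CPM, and the points of the libraries are widest apart for Mirlet7d. Mirlet7f-2, Mirlet7c-2, Mirlet7a-1 and Mirlet7f-1 share their 5p sequence with another gene, so their points can miss shared reads.

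Mirlet7g, Mirlet7b and Mirlet7i made up 81.2% of the summed counts of the 9 genes in replicate 1 and 88.6% in replicate 2. Mirlet7g was 31.2% of this sum in replicate 1 and 35.0% in replicate 2, Mirlet7b was 26.5% and 29.3%, and Mirlet7i was 23.5% and 24.2%. Mirlet7d was 14.9% in replicate 1 and 7.52% in replicate 2, so it alone among the 4 leading genes held the smaller share in replicate 2. Of the remaining 5 genes Mir98 had the most, 1.78% and 1.86%.

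**Figure D2:**
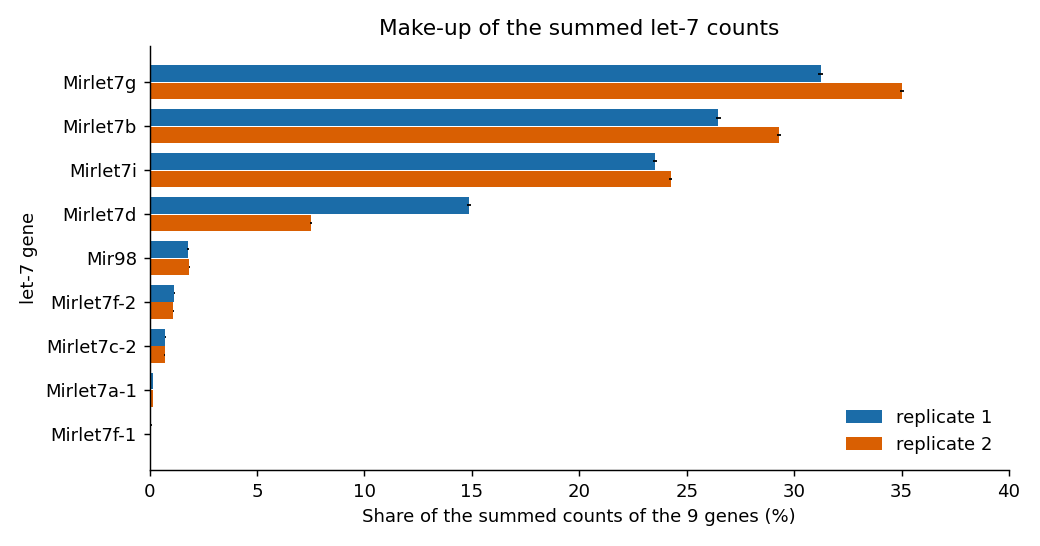
Share of each gene in the summed counts of the 9 let-7 genes, in percent, with bars for replicate 1 and replicate 2 and black lines for the 95% exact interval of counting error. Mirlet7d is at 14.9% and 7.52%, and the 3 leading genes hold 81.2% and 88.6%.

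Every member had a lower level in replicate 2 than in replicate 1. The exact conditional binomial test, two-sided, compared each gene's counts against the ratio of the library totals, and p-values were adjusted by Benjamini-Hochberg over the 392 genes that had at least 10 counts in each library. All 9 members passed at 0.05 and all 9 were lower, and the largest adjusted p of the exact test among them was 9.64e-13, for Mirlet7a-1. Of all 392 genes 56.9% passed this test in either direction and 22.7% passed as lower. The members are not 9 separate observations, since 7 of them lie in shared clusters and some share sequence. The members' log2 ratios of replicate 2 over replicate 1 had a median of −0.34, against 0.06 for all 392 genes, and ran from −0.13 to −1.28.

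The size of the difference was uneven. Mirlet7d had a log2 ratio of −1.28 (counting SE 0.0075), that is, 2.43 times as high in replicate 1, which lies beyond the lowest 5% of all genes (−0.91). Mirlet7f-1 followed at −0.74 (SE 0.087), and these 2 of the 9 differed by over 1.5-fold, a share close to the 27.6% of all genes that did so in either direction. Mirlet7a-1 was at −0.44 (SE 0.060), Mirlet7c-2 and Mirlet7f-2 were both at −0.34, Mirlet7i at −0.25 and Mir98 at −0.24. The ratios nearest to 0 were those of the most abundant members, Mirlet7b at −0.15 and Mirlet7g at −0.13. These last 4 genes lie within the middle 50% of all genes, which starts at −0.27.

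The sum of the 9 genes in replicate 2 was 0.813 times that in replicate 1 (95% counting interval 0.811 to 0.816). Without Mirlet7d, a setting added after its values were seen, the 8 other genes held 20.5% and 18.1% and the ratio was 0.883 (0.880 to 0.886). The binomial test covers counting error only. An edgeR exact test with a dispersion common to all genes called none of the 9 members and 0.765% of all genes. That dispersion was estimated from the same 2 libraries that the test then compares, so its few calls do not show that the libraries were alike.

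The libraries also differed in other measures. Reads matching more than 1 place, which no gene received, made up 48.6% of the mapped reads of replicate 1 and 52.8% of those of replicate 2. The neuronal marker list summed to 8.78% of counts in replicate 1 and 7.49% in replicate 2, but its lower sum rests on Mir132 alone, at 60392 and 37793 CPM. Without Mir132, a setting added after its values were seen, the list summed to 2.74% and 3.71%, and 4 of its 8 measured genes were called higher and 1 lower. The vessel list summed to 1.68% and 2.80%, of which Mir126a was higher in replicate 2, at 10782 and 22504 CPM, while Mir143 and Mir145a were called lower. In the oligodendrocyte list, at 0.273% and 0.356%, Mir219a-2 was the only gene of 3 that was called, as higher.

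The list for microglia and white blood cells, at 0.151% and 0.164%, had 1 gene called higher and 1 called lower. The red cell list was at 0.0134% and 0.0144%, and the counting interval of its ratio, 0.939 to 1.23, includes 1. The part of these measures in the let-7 differences was not tested, and in bulk tissue fewer cells of a type and less RNA per cell cannot be told apart.

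**Figure D3:**
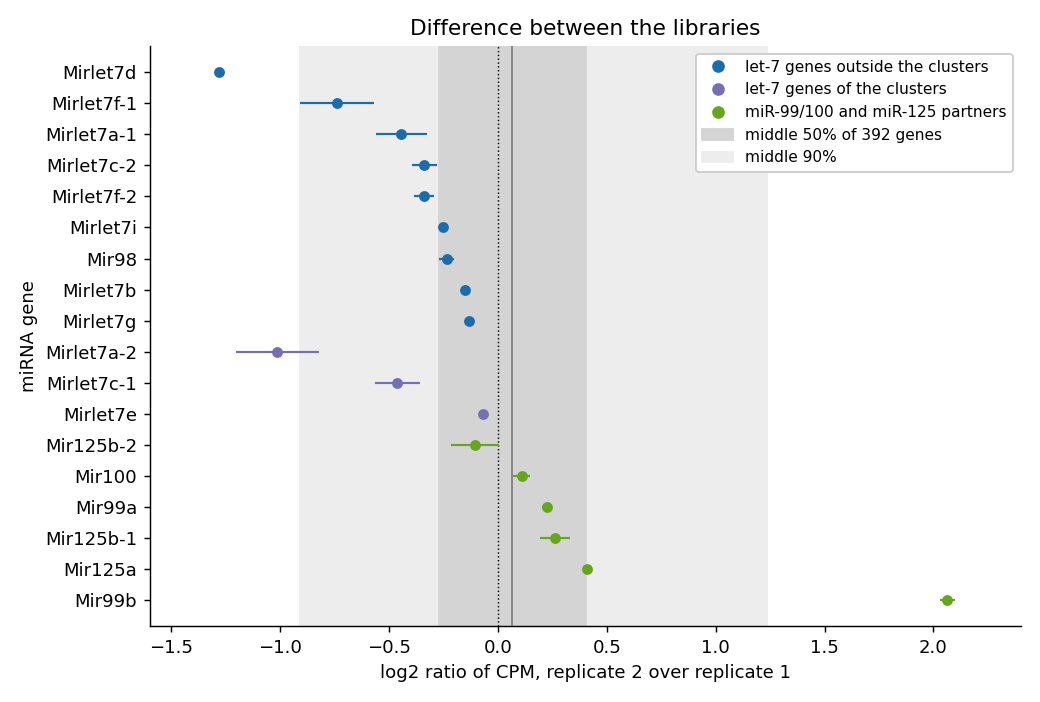
log2 ratio of CPM, replicate 2 over replicate 1, for the 9 let-7 genes, the 3 let-7 genes of the miR-99/100, let-7, miR-125 clusters and their 6 partners, with bars for the 95% counting interval. Shading marks the middle 50% and 90% of the 392 measured genes and the grey line their median. All 9 points lie left of 0, with Mirlet7d farthest at −1.28.

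There are 3 groups of members that are neighbours on a chromosome, and within a group the share of 1 gene does not depend on the library total. On chromosome 13 Mirlet7f-1 starts 355 bases and Mirlet7d 2158 bases downstream of Mirlet7a-1, all within 6720427I07Rik. Mirlet7d had 85.9 times the counts of Mirlet7a-1 in replicate 1 and 48.1 times in replicate 2. Against Mirlet7f-1 it had 164 and 113 times the counts.

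The share of Mirlet7a-1 in its sum with Mirlet7d was 1.15% (1.08% to 1.22%) in replicate 1 and 2.03% (1.93% to 2.14%) in replicate 2, and these intervals do not overlap. In its sum with Mirlet7f-1, Mirlet7a-1 held 65.6% (63.2% to 68.0%) and 70.1% (68.0% to 72.1%), and here the intervals met at their ends. The 3 genes together were at 0.417 times their replicate 1 level in replicate 2 (0.413 to 0.421), nearly all of which was Mirlet7d.

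On chromosome 15 Mirlet7b starts 716 bases downstream of Mirlet7c-2. Mirlet7b held 97.33% of the pair in replicate 1 and 97.65% in replicate 2, or 36.5 and 41.6 times the counts of Mirlet7c-2, and the intervals did not overlap. On the X chromosome Mir98 starts 868 bases downstream of Mirlet7f-2, which held 39.1% of the pair (38.4% to 39.9%) and 37.4% (36.9% to 38.0%). The sum of the pair stood at a ratio of 0.898 (0.892 to 0.904) on chromosome 15 and 0.826 (0.810 to 0.843) on the X chromosome. On chromosomes 13 and 15 a single gene thus stood far above its neighbours in counts. On X Mir98 had 1.56 and 1.67 times the counts of Mirlet7f-2. The lower genes, Mirlet7a-1, Mirlet7f-1, Mirlet7c-2 and Mirlet7f-2, have a 5p sequence carried by another gene, and reads matching several places were not counted. How far these genes are low, and how far shared reads were lost, cannot be told apart. Mirlet7a-1 and Mirlet7c-2 share both mature arms with another gene, so reads of exactly these arms were not counted for them. Their ratios to Mirlet7d and Mirlet7b therefore do not compare the same kinds of reads.

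**Figure D4:**
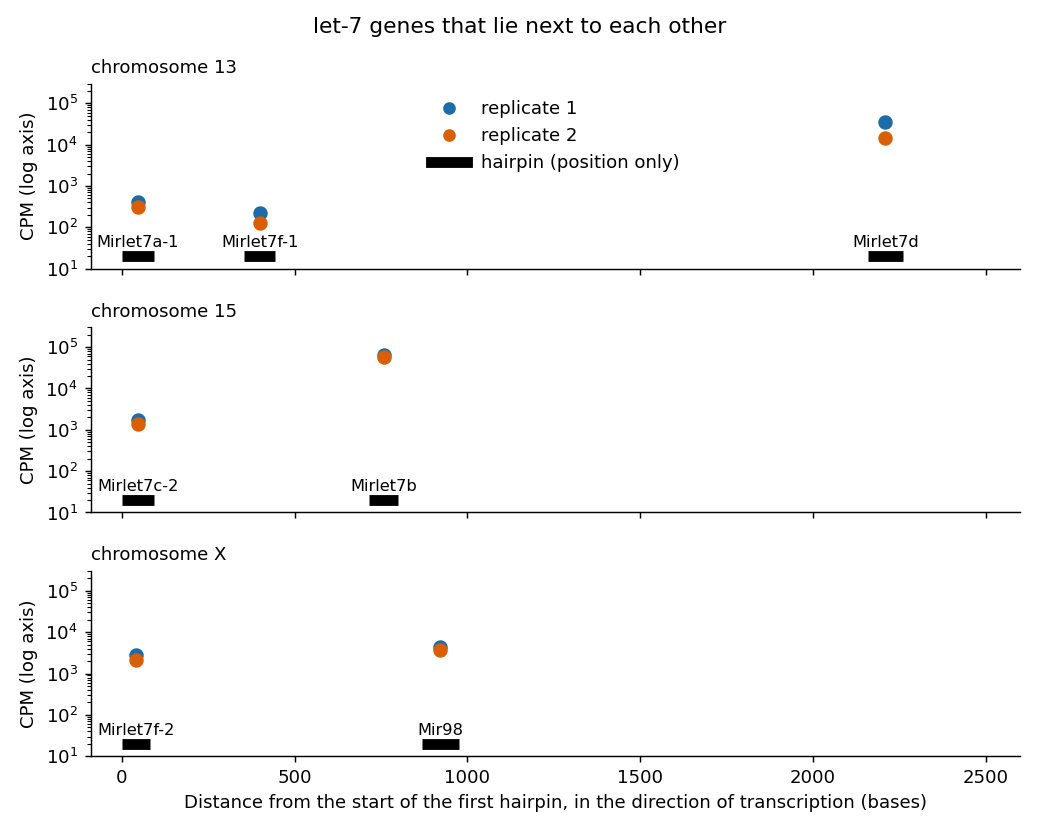
Level in CPM on a log axis of the let-7 genes that lie next to each other on chromosomes 13, 15 and X, against distance in bases from the start of the first hairpin in the direction of transcription. Points are the libraries and black bars mark hairpin positions only. Mirlet7d and Mirlet7b stand far above their neighbours, while Mirlet7f-2 and Mir98 are close. The 5p sequences of Mirlet7a-1, Mirlet7f-1, Mirlet7c-2 and Mirlet7f-2 are carried by another gene, so their levels can miss shared reads.

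The level went with whether the 5p sequence belongs to 1 gene. Mirlet7g, Mirlet7b, Mirlet7i, Mirlet7d and Mir98, whose 5p sequence printed above is found in no other annotated miRNA gene, had mean levels of 3957 to 71794 CPM. Mirlet7f-2, Mirlet7c-2, Mirlet7a-1 and Mirlet7f-1, whose 5p sequence is carried by 2 genes, had means of 174 to 2464 CPM. In neither library did the groups overlap. The first group held 23.5% and 19.2% of all counts, and the second 0.513% and 0.399%.

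The longest stretch shared with another miRNA gene was 14 bases for Mirlet7d, 17 for Mir98 and 19 for Mirlet7b, Mirlet7g and Mirlet7i. It was 22 bases, a whole mature sequence, for Mirlet7f-1 and Mirlet7f-2, and 26 for Mirlet7a-1 and Mirlet7c-2. Windows of 20 bases were taken along the whole hairpin, so their percentages are not shares of reads. None of the windows of the first 5 genes recurred in another miRNA gene. The percentage that did was 16% for Mirlet7a-1, 14.5% for Mirlet7c-2, 5.71% for Mirlet7f-1 and 4.69% for Mirlet7f-2. A read of let-7a-5p, let-7c-5p or let-7f-5p therefore matches 2 genes, and how many of the reads with more than 1 match came from let-7 was not tested. Mirlet7a-1 and Mirlet7c-2 share both mature arms with another gene, so reads of exactly either mature sequence were not counted for them. Their counts come from other reads, such as longer ones. For Mirlet7f-1 and Mirlet7f-2 this holds for the 5p arm only. How far each of these 4 genes is low, and how far shared reads were lost, cannot be told apart. The levels of let-7a, let-7c and let-7f as mature miRNAs are not given by these counts. The comparison was made among annotated miRNA genes only, not against the genome.

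**Figure D5:**
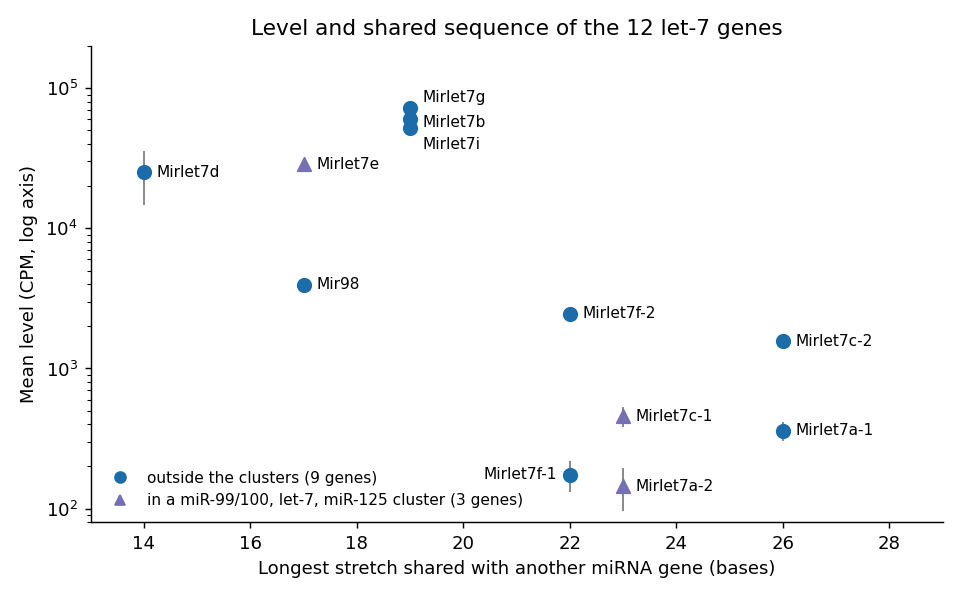
Mean level in CPM on a log axis of the 12 let-7 genes against the longest stretch, in bases, that the hairpin shares with another annotated miRNA gene. Lines join the libraries. Genes at 22 bases or more lie at or below 2464 CPM, while those at 19 or fewer lie at or above 3957 CPM.

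The 3 let-7 genes of the miR-99/100, let-7, miR-125 clusters showed the same split. Mirlet7e, whose 5p sequence is its own, had 29355 and 27941 CPM. Mirlet7c-1 had 529 and 384 CPM and Mirlet7a-2 had 193 and 95.8 CPM, and both share a 5p sequence with a member. All 3 were called lower in replicate 2 by the exact binomial test, with log2 ratios of −0.07, −0.46 and −1.01, beside 22.7% of all genes. Their sum stood at a ratio of 0.945 (0.936 to 0.954), nearer to 1 than that of the 9.

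Of their 6 cluster partners of the miR-99/100 and miR-125 families, 5 were called higher in replicate 2, beside 34.2% of all genes. Mir125b-2, at −0.11, was not called (adjusted p 0.0943 by the exact binomial test), but it was called lower with TMM factors, with DESeq2 size factors and with both other totals tried, the total without let-7 genes and that of all mapped reads. Mir99b, a neighbour of Mirlet7e, had levels of 3236 and 13526 CPM, and its log2 ratio was 2.06. Mir125a was at 0.41, Mir125b-1 at 0.26, Mir99a at 0.22 and Mir100 at 0.11. Mir100 lost its call with DESeq2 size factors and with both other totals, and turned to −0.02 when scaled to all mapped reads.

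Other genes with the let-7 seed were hardly detected. Mir1961 had 0 counts in both libraries, which allows up to 1.26 and 0.675 CPM, and Mir7k, whose mature RNA is named let-7k, had 0 and 1 counts. Mir7j, named let-7j and noted after its values were seen, carries GAGGUAU in place of the seed and had 39 and 57 counts. Outside the family the gene nearest in level to Mirlet7g, Mirlet7b and Mirlet7i alike was Mir127, an imprinted miRNA, at 50224 and 57896 CPM. It was the nearest of 230 genes by distance on log2(CPM + 1) over only 2 libraries, at 0.63, 0.34 and 0.34, and unlike the let-7 genes it was higher in replicate 2.

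The libraries held 2388379 and 4447390 own-strand counts, so replicate 2 was 1.86 times as deep. The neuron-enriched Mir128-1, Mir132 and Mir137 stood at 6366 CPM or more in both libraries. Mir128-2, Mir138-1 and Mir138-2 of the same list were at 2498 to 5103 CPM. The numbered copies of Mir9 were at 2.92 to 79.1 CPM and those of Mir124a had at most 9 counts. Reads matching several places were given to no gene, and sequence shared among these copies was not examined. Their counts therefore do not give the level of miR-9 or miR-124. The liver miRNA Mir122 was at 54.0 and 57.6 CPM. The 8 heart and skeletal muscle genes summed to 32.7 and 38.9 CPM, with 4 of them at 0 in both libraries. Mir206 was the highest at 13.4 and 22.3 CPM in replicates 1 and 2. The genes at 0 were Mir133a-1, Mir133a-2, Mir133b and Mir1a-1. Numbered copies are among them, so the limit given for Mir9 and Mir124a holds here too, and the sum does not bound the muscle content.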

How the data were processed

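Small RNA libraries of 2 biological replicates were compared as 1 group. The authors deposited raw read counts per miRNA gene, made on mm10 with GENCODE M21 per the readme files; for the aligner and counter, names were not given in the sources used here. Lacking a header, the 3 count columns were read from their values as both strands, own strand and opposite strand, and own-strand counts were used. The 4 entries that name no gene stayed out of library sizes. Among mapped reads, those matching several places came to 48.6% and 52.8%, and those in no annotated gene to 7.36% and 6.91%. The reference is C57BL/6J, so CAST/EiJ reads can mismatch, which was not tested. All 2202 identifiers matched GENCODE M21.

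CPM, exact Clopper-Pearson intervals at 95% and exact conditional binomial tests with Benjamini-Hochberg adjustment at 0.05 were computed with Python 3.11.15 and SciPy 1.17.1. With 1 group, edgeR's quasi-likelihood test had nothing to contrast, so edgeR 4.0.16 gave TMM factors and, as an alternative, an exact test with common dispersion. DESeq2 1.42.0 gave size factors. On simulated data the binomial test was run with counting error alone, scaled to the genes set as unchanged, so spread between libraries was not covered. For edgeR the estimate of a known simulated spread was checked. Sequences are RefSeq's on GRCm38.p6. The named genes are the 9 members, their cluster relatives, genes with the same seed and the gene nearest in level to each of the 3 highest members. Members, lists and tests were chosen with earlier results of these data known. Binomial p-values cover counting error only.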

Additional observations from a re-analysis of the deposited data

Results flagged for a closer look

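Mirlet7b had counts on the opposite strand, which no comparison here used, namely 3 in replicate 1 and 5 in replicate 2, the latter above the limit of 3 counts that a count of 0 allows, beside 151940 and 254879 counts on its own strand.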

How the results depend on the processing

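No log2 ratio of a member changed its direction in any of 71 alternative values, but the settings left little room for a reversal. TMM factors, DESeq2 size factors and the other totals lowered every ratio, by 0.06 to 0.13. Counting both strands moved the ratio nearest to 0, that of Mirlet7g, only from −0.13 to −0.11. Adding a small constant to the CPM and the edgeR test left the ratios nearly unchanged. The kept direction is therefore no separate support. Of the 71 values, 62 kept their direction and, where tested, their call, and 9, all from edgeR's exact test with common dispersion, lost it. By that test 0 of the 9 members were called (0 at an unadjusted p under 0.05) and 3 of all 392 genes (19 at an unadjusted p under 0.05), against 9 and 223. As a share of all mapped reads the 9 genes were 9.24% in place of 21.8%. Leaving out a replicate put the share at 19.6% to 24.0%. Scaling to mapped reads moved the median log2 ratio of all genes from 0.06 to −0.06, a shift of 0.13. With TMM factors or DESeq2 size factors 220 genes were called, of which 99 and 102 were lower, against 89 of 223. With both strands counted together Mirlet7f-1 stood at 0. No paired analysis was possible because all samples form 1 group. At 3 counts the limit is 1.26 CPM in replicate 1 and 0.675 CPM in replicate 2.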
